A study of Mus musculus with 18 samples.

Results

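The regions described here are the 381 GATA6 binding regions that were classed Early&Constant (Early below), were bound by pluripotency transcription factors (PTFs) from d0 and carried no SOX17. They were selected on measured binding: the GATA6 class came from GATA6 ChIP-seq signal over the time course, and the PTF and SOX17 classes came from called peaks. These measured values chose the members, so the binding of GATA6, the PTFs and SOX17 is given as description only. The 381 regions made up 0.899% of all 42403 GATA6 regions, 3.21% of the 11875 Early regions and 11.6% of the 3282 Early regions with PTFs from d0. The remaining Early regions with PTFs, 2901 in number, were bound by SOX17.

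The regions come from a study of mouse embryonic stem (ES) cells of the KH2 line (C57BL/6 x 129/Sv). These cells carry a doxycycline (Dox) inducible Gata6 cassette and were grown with serum and LIF on inactivated fibroblast feeders. Per the study, GATA6 regions were identified over the Dox time course and also in XEN cells, a separate line from early embryos. The series itself holds 18 MNase-seq libraries, 3 replicates each of untreated cells (d0) and of cells after 8, 16, 24, 48 and 96 h of Dox. No column used here carries a value of these libraries, so nucleosome occupancy was not analysed here. The comparisons below rest on the regions' sequence, on the class of accessibility at d0 (ATAC-seq), on the histone state in ES cells, and on the response of GATA6 binding to Oct4 siRNA, given together with Dox for 48 h in cells of 1 clone. The histone states were derived by the authors from ENCODE data of ES cells, not from the cultures described here.

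GATA6 is the zinc finger transcription factor that directs cells of the inner cell mass to the primitive endoderm (PrE), and its expression alone converts ES cells into PrE-like cells. OCT4 and SOX2 bind side by side to a composite motif and, with the nuclear receptor ESRRB, hold the enhancers of the pluripotency network in ES cells. SOX17 is a SOX factor of the endoderm that appears downstream of GATA6 and recognises a core related to that of SOX2. The regions described here carried PTFs and GATA6 and no called SOX17 peak.

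The sequences at the GATA6 summit, the base with the highest GATA6 signal, show what this combination looked like. Each line below is the plus strand of GRCm38 (mm10) from 100 bp before to 100 bp after the summit of 1 region, and capitals mark the best GATA6 and OCT4:SOX2 motifs in that window. The first 4 lie within 100 kb of genes of the pluripotency and signalling lists, and the other 4 were named for their motif scores, their response to Oct4 knockdown or overlapping motifs. The first 4 are headed by the listed gene, and the coding gene nearest to the Fgfr2 window was Ctbp2 (11151 bp). The other 4 are headed by the nearest coding gene, which lay from 1248 bp (Acsl5) to 207659 bp (Tfec) away. Positions are counted from 1 at the left end.
Sox2, chr3:34646258-34646458: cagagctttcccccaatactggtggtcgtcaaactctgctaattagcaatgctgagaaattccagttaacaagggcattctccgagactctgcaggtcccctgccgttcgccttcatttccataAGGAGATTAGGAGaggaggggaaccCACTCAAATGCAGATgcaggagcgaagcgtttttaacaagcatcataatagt
Tet2, chr3:133508870-133509070: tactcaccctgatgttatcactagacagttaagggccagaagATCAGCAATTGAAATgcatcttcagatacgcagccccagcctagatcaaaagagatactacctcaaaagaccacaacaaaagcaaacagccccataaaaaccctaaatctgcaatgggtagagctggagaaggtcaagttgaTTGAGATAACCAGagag
Fgfr2, chr7:133041167-133041367: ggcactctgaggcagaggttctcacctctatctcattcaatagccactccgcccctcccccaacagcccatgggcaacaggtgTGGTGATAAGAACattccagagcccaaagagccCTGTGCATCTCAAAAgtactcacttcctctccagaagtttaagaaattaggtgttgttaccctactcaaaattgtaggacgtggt
Etv5, chr16:22402636-22402836: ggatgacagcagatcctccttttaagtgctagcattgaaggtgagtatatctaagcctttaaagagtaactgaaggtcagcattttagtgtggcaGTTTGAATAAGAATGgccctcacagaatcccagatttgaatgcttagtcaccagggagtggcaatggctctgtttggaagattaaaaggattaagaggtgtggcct
Hs3st5, chr10:36304881-36305081: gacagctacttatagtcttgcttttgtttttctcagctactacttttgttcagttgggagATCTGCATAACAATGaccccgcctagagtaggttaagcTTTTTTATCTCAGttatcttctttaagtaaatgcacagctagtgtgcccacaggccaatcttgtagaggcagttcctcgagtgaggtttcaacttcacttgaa
Mex3b, chr7:82990458-82990658: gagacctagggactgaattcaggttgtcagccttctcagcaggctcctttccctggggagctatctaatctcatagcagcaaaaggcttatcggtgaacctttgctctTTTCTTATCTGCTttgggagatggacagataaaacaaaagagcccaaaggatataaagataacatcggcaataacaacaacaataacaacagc
Acsl5, chr19:55271522-55271722: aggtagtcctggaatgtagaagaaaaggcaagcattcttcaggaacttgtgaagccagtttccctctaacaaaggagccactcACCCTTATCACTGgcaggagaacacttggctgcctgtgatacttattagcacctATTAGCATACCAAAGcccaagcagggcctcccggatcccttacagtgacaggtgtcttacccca
Tfec, chr6:16627504-16627704: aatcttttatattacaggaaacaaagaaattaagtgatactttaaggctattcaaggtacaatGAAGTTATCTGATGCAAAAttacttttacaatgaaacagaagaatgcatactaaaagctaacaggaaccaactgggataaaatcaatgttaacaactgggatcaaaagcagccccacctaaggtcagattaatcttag

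In the Sox2 region the GATA6 motif took positions 125 to 137 and the OCT4:SOX2 motif positions 150 to 164, both on the plus strand. In the Fgfr2 region they took positions 84 to 96 and 117 to 131 on opposite strands. The Etv5 window held only an OCT4:SOX2 motif (96 to 110), and the Mex3b window only a GATA6 motif (109 to 121). In the Tet2 window the OCT4:SOX2 motif at 43 to 57 and the GATA6 motif at 185 to 197 lay far apart. The Hs3st5 window had the GATA6 motif at 99 to 111 and the OCT4:SOX2 motif at 61 to 75, and the Acsl5 window had them at 84 to 96 and 138 to 152. In the Tfec region both motifs overlapped, with GATA6 at 64 to 76 and OCT4:SOX2 at 68 to 82.

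The deposited score of a motif is its log-odds match to a scoring matrix, so that a higher score is a closer match. The 3 regions with the highest score for each motif are shown next in the orientation of the motif, with the motif in capitals and 10 flanking bases on each side, to let the matrices be read as letters. Each is headed by the nearest coding gene, whatever its distance.
GATA6, Hmgxb4, chr8:75018320-75018352, plus strand: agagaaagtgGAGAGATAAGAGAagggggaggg
GATA6, Hnrnph3, chr10:63024189-63024221, minus strand: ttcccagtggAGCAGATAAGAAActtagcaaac
GATA6, Mex3b, chr7:82990556-82990588, minus strand: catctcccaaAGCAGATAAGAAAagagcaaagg
OCT4:SOX2, Hs3st5, chr10:36304931-36304965, minus strand: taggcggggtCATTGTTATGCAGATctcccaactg
OCT4:SOX2, Taf15, chr11:83495705-83495739, minus strand: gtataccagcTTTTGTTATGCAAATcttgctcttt
OCT4:SOX2, Fam129a, chr1:151713919-151713953, plus strand: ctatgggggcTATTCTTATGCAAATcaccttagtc
SOX17, Nnt, chr13:119414382-119414410, plus strand: ctgttgctgaCCCATTGTCcttgcctcag
SOX17, Chd6, chr2:161187352-161187380, plus strand: ggatcaaactCCCATTGTCagacttggtg
SOX17, Dgkh, chr14:78684482-78684510, minus strand: ctacggctccCTCATTGTCtacactggtt
ESRRB, Traf6, chr2:101733471-101733501, plus strand: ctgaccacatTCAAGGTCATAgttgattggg
ESRRB, 2200002J24Rik, chr7:30706347-30706377, minus strand: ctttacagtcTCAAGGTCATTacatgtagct
ESRRB, Myo10, chr15:25610062-25610092, minus strand: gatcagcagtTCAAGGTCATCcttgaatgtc

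The GATA6 matches held AGATAA in all 3 sequences and scored 15.13, 15.01 and 15.01. The OCT4:SOX2 matches joined a SOX site to an octamer site and scored 20.32, 19.99 and 18.53. These 3 OCT4:SOX2 motifs were centred at -33, -44 and -14 bp from the GATA6 summit on the plus strand. The best SOX17 matches (12.83, 12.83 and 12.81) lay farther out, at 1117, -394 and 206 bp from it, and the best ESRRB matches (18.49, 18.12 and 17.91) at 184, 368 and 521 bp.

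The 381 regions had a median width of 885 bp (mean 947, SD 391, range 223 to 2893 bp), between the 1093 bp of Early regions with PTFs and SOX17 and the 643 bp of Transient regions with PTFs and without SOX17. The median was 485 bp in Early regions without PTFs and SOX17 and 525 bp over all regions. Width comes from the GATA6 peaks and was not tested. Where comparisons were repeated within 10 bins of width, the value is given for results that passed with or without bins. It is given where the call or direction changed or the log2 odds ratio moved by about 1.5 times. The regions were spread over 20 chromosomes, with 9 to 31 on each, and the most on chromosome 6. Summits lay in introns in 190 regions (49.9%), between genes in 179 (47.0%) and in exons in 12 (3.15%).

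To place the 381 regions, they were compared with 3 neighbouring classes that differ from them in 1 label each. These were the 2901 Early regions with PTFs from d0 and with SOX17, the 3961 Transient regions with PTFs from d0 and without SOX17, and the 2278 Early regions without PTFs and without SOX17. They are called Early regions with SOX17, the Transient class and Early regions without PTFs below, and other classes with or without PTFs were not compared. Transient regions are those that GATA6 bound early and then left. Differences are log2 odds ratios with 95% Woolf intervals, positive where the 381 regions had the larger share, and p-values come from two-sided Fisher's exact tests adjusted over all 48 comparisons (16 measures against 3 classes) by the Benjamini-Hochberg procedure. Of these, 8 of 16 passed the threshold of 0.05 against the class with SOX17, 11 of 16 against the Transient class and 9 of 16 against the class without PTFs. Regions are the units, neighbouring regions are not independent, and the intervals cover counting error only.

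Before GATA6 was induced, the 381 regions were more often closed than the compared classes with PTFs from d0. They were far less often closed than Early regions without PTFs and SOX17. Closed regions numbered 162 (42.5%, 95% Wilson interval 37.7 to 47.5), moderately accessible ones 185 (48.6%, 43.6 to 53.6) and accessible ones 34 (8.92%, 6.46 to 12.2). The closed share was 33.7% in Early regions with PTFs and SOX17 (log2 odds ratio 0.54, 0.23 to 0.85, adjusted exact p = 0.00184). It was 15.2% in Transient regions with PTFs and without SOX17 (2.05, 1.73 to 2.36, adjusted exact p = 6.85e-32). It was 77.7% in Early regions without PTFs (-2.24, -2.56 to -1.91, adjusted exact p = 8.22e-40). The direction of the pooled difference was seen on 15, 20 and 20 of 20 chromosomes. Over all GATA6 regions the closed share was 61.3%.

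The accessible share gave the mirror image for the Transient class (23.1%, log2 odds ratio -1.62, -2.14 to -1.1, adjusted exact p = 2.04e-11) and for Early regions without PTFs (2.59%, 1.88, 1.25 to 2.51, adjusted exact p = 1.34e-07). The latter difference was 1.11 within bins of region width (adjusted exact p = 0.0022). Against Early regions with SOX17 (12.2%) the difference did not pass (-0.51, -1.04 to 0.02, adjusted exact p = 0.102). It passed within width bins (-0.63, adjusted exact p = 0.0308).

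**Figure D1:**
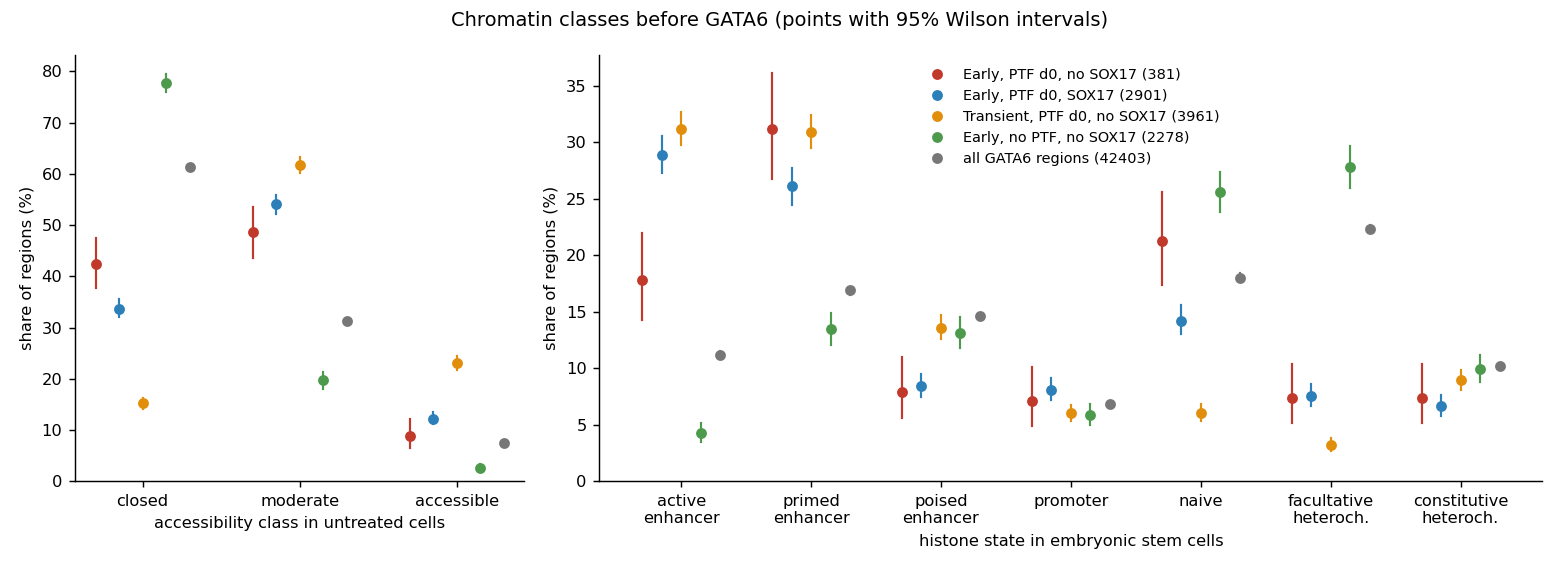
Share of regions (%) in each accessibility class (left) and histone state (right) for the 381 regions, the 3 neighbouring classes and all regions; points are shares and bars 95% Wilson intervals. The 381 regions sit between the Transient and the PTF-free classes in the closed share (42.5% against 15.2% and 77.7%), and lead with the primed enhancer state (31.2%).

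The histone states separated the same classes. Active enhancers, which carry H3K27 acetylation, made up 68 of the 381 regions (17.8%, 14.3 to 22.0). This was less than in Early regions with SOX17 (28.9%, log2 odds ratio -0.91, -1.3 to -0.51, adjusted exact p = 8.76e-06) and in Transient regions (31.2%, -1.06, -1.45 to -0.67, adjusted exact p = 5.16e-08). It was more than in Early regions without PTFs (4.26%, 2.29, 1.81 to 2.77, adjusted exact p = 7.57e-18).

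Primed enhancers were the most common state, with 119 regions (31.2%, 26.8 to 36.1). Their share exceeded that of Early regions without PTFs (13.5%, 1.54, 1.19 to 1.9, adjusted exact p = 2.25e-15; 1.02 within width bins, adjusted exact p = 7.66e-06), and the difference from the Transient class (30.9%) had an interval of -0.3 to 0.35. Against Early regions with SOX17 (26.1%) it did not pass (0.37, 0.03 to 0.7, adjusted exact p = 0.0596), though it did without chromosomes X and Y (0.39, adjusted exact p = 0.0433).

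The naive state, a cluster named so by the authors, held 81 regions (21.3%, 17.4 to 25.6). This was more than in Early regions with SOX17 (14.2%, 0.7, 0.32 to 1.09, adjusted exact p = 0.00125) and in the Transient class (6.06%, 2.07, 1.66 to 2.47, adjusted exact p = 1.81e-19). Against Early regions without PTFs (25.6%) the difference did not pass (-0.35, -0.73 to 0.03, adjusted exact p = 0.114), and it passed within width bins (-0.68, adjusted exact p = 0.00229). Facultative heterochromatin, 28 regions (7.35%), was less frequent than in Early regions without PTFs (27.8%, -2.28, -2.85 to -1.71, adjusted exact p = 3.18e-20), with a log2 odds ratio of -1.5 within width bins (adjusted exact p = 1.48e-06). It was more frequent than in the Transient class (3.23%, 1.25, 0.64 to 1.86, adjusted exact p = 0.000538). Poised enhancers (7.87%) were less frequent than in the Transient class (13.6%, adjusted exact p = 0.00215) and in Early regions without PTFs (13.1%, adjusted exact p = 0.00614), and the first of these differences no longer passed within width bins (-0.58, adjusted exact p = 0.0622). Neither the promoter state (7.09%) nor constitutive heterochromatin (7.35%) differed past the threshold from any of the 3 classes without regard to width. Within width bins constitutive heterochromatin was more frequent in the 381 regions than in Early regions without PTFs, and this passed (log2 odds ratio 1.12, adjusted exact p = 0.00412), whereas the log2 odds ratio without bins was -0.47. The direction also changed within width bins in comparisons that passed in neither form. For the promoter state against Early regions without PTFs it was 0.3 without bins and -0.57 within. For constitutive heterochromatin it was 0.15 and -0.27 against Early regions with SOX17, and -0.31 and 0.24 against the Transient class. For primed enhancers against the Transient class it was 0.02 and -0.03.

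Accessibility and histone state were tied to each other within the 381 regions. Of the 162 closed regions 73 (45.1%, 37.6 to 52.7) were naive, 42 (25.9%) primed and 26 (16.0%) facultative heterochromatin, while 0 of 162 were active enhancers and 0 of 162 promoters (95% Wilson upper bound 2.32% each). Of the 185 moderately accessible regions 75 (40.5%, 33.7 to 47.7) were primed and 54 (29.2%, 23.1 to 36.1) active. The 34 accessible regions were promoters in 15 cases (44.1%) and active enhancers in 14 (41.2%). The members thus ranged from closed, naive chromatin to open promoters.

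The windows around the summit were rich in GATA6 and OCT4:SOX2 motifs and held SOX17 motifs about as often as control windows. A GATA6 motif was found in the summit window, 100 bp to each side, of 319 regions (83.7%, 79.7 to 87.1), compared with 31.3% of 707 control windows 3 kb to either side that overlapped no GATA6 region. An OCT4:SOX2 motif was present in 249 windows (65.4%, 60.4 to 70.0; controls 35.1%), a SOX17 motif in 117 (30.7%, 26.3 to 35.5; controls 28.3%) and an ESRRB motif in 63 (16.5%, 13.1 to 20.6; controls 12.7%). The intervals of the SOX17 and ESRRB shares in summit windows overlapped those of the control windows (25.1 to 31.7 and 10.5 to 15.4).

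The GATA6 motif was more frequent than in Early regions with SOX17 (77.2%, log2 odds ratio 0.6, 0.19 to 1.01, adjusted exact p = 0.00692) and than in the Transient class (60.0%, 1.78, 1.37 to 2.18, adjusted exact p = 8.31e-21). It was less frequent than in Early regions without PTFs (93.4%, -1.46, -1.92 to -1.0, adjusted exact p = 1.47e-08). For OCT4:SOX2 the order was another. The motif was more frequent in the 381 regions than in Early regions with SOX17 (49.1%, 0.97, 0.65 to 1.29, adjusted exact p = 8.44e-09) and without PTFs (34.5%, 1.84, 1.51 to 2.17, adjusted exact p = 2.21e-28), and less frequent than in the Transient class (77.1%, -0.83, -1.16 to -0.51, adjusted exact p = 2.34e-06).

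The SOX17 motif was less frequent than in the class bound by SOX17 (53.8%, -1.39, -1.72 to -1.06, adjusted exact p = 9.09e-17) and than in the Transient class (39.9%, -0.58, -0.91 to -0.26, adjusted exact p = 0.000973). Against Early regions without PTFs and SOX17 (28.3%) the interval of the difference was -0.17 to 0.51. No comparison of the ESRRB motif passed, with intervals of -0.48 to 0.35, -0.65 to 0.16 and -0.16 to 0.69. The classes were defined by binding, and the motifs were scored on sequence. The windows, however, were placed by GATA6 ChIP-seq signal, which also set the GATA6 classes. Motif shares in these windows are thus not independent of the selection, and the part this plays was not tested. When a motif anywhere in the region was counted, the GATA6 difference from the SOX17-bound class (log2 odds ratio 0.02), the OCT4:SOX2 differences from the 2 PTF-bound classes (0.07 and -0.26) and the SOX17 difference from the Transient class (0.14) no longer passed, and the last changed direction. Counted in this way, the SOX17 motif was more frequent in the 381 regions than in Early regions without PTFs (1.16, adjusted exact p = 1.11e-10). The ESRRB motif then passed in all 3 comparisons, with log2 odds ratios of -0.47 against Early regions with SOX17, 0.41 against the Transient class and 1.15 against Early regions without PTFs.

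**Figure D2:**
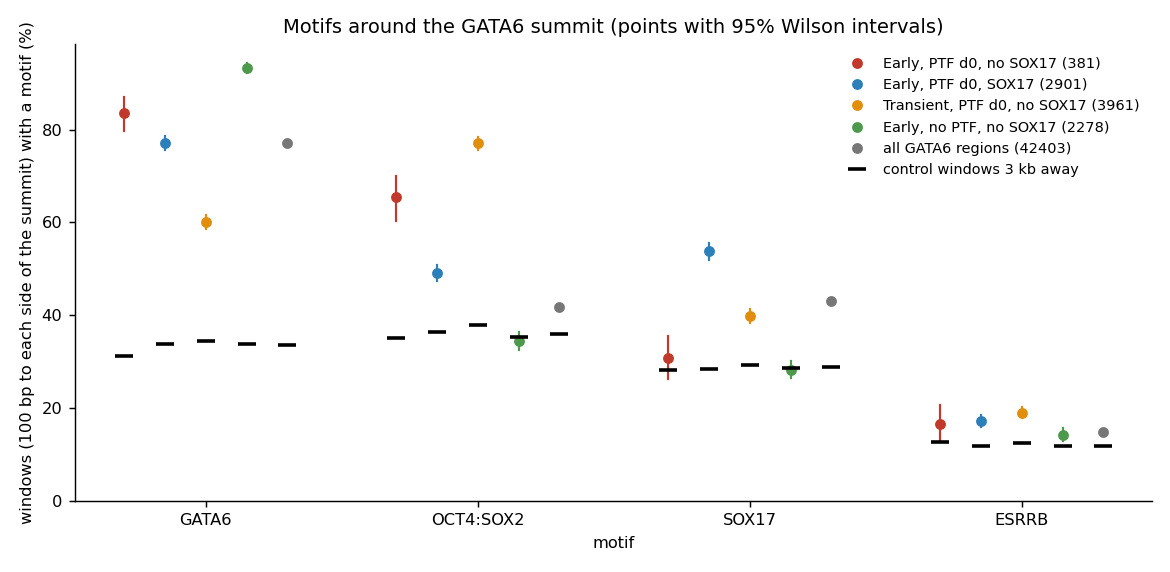
Share of windows reaching 100 bp to each side of the GATA6 summit (%) that hold a motif for the 381 regions, the 3 neighbouring classes and all regions; points are shares, bars 95% Wilson intervals and black dashes control windows 3 kb away. For the 381 regions GATA6 (83.7%) and OCT4:SOX2 (65.4%) lie well above their dashes and SOX17 (30.7%) close to its dash (28.3%).

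The motif scores were compared where a region had a motif. The best GATA6 score averaged 11.14 in the 381 regions (SD 2.34, n = 363). It was 0.26 higher than in Early regions with SOX17, with a 95% interval that reached 0 (upper bound 0.51). It was 1.28 higher than in the Transient class (95% interval 1.02 to 1.53) and 0.34 lower than in Early regions without PTFs (-0.6 to -0.09). The best OCT4:SOX2 score averaged 10.58 (SD 3.11, n = 355), 0.78 above Early regions with SOX17 (0.44 to 1.12), 2.47 above those without PTFs (2.13 to 2.82) and 0.46 below the Transient class (-0.8 to -0.12). The best SOX17 score averaged 9.44 (SD 1.53, n = 288), 0.81 below the class bound by SOX17 (-0.99 to -0.62). The ESRRB score (mean 9.61, n = 197) differed from that of Early regions without PTFs by 0.77 (0.2 to 1.34). With the mean score of all motifs of a region in place of the best, the GATA6 difference from the Transient class was 0.4, the OCT4:SOX2 difference from Early regions without PTFs 0.9 and the SOX17 difference from the SOX17-bound class -0.33. No test was run on scores.

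Exact letters were also counted, without a matrix. For the GATA core, the octamer and the SOX core they ordered the 4 classes as the motif shares did, and for ESRRB they did not. The GATA core AGATAA, or TTATCT on the other strand, was found in the summit windows of 240 of the 381 regions (63.0%, 58.0 to 67.7), compared with 54.3% of all 42403 windows, 36.6% in the Transient class and 75.5% in Early regions without PTFs. The octamer ATGCAAAT, or ATTTGCAT on the other strand, was found in 25 windows (6.56%, 4.48 to 9.51), in 3.0% of all windows and in 9.21% of the Transient class. The SOX core ACAAT, or ATTGT on the other strand, was in 128 windows (33.6%, 29.0 to 38.5), compared with 46.6% of all windows and 58.2% of the class with SOX17. The core of the ESRRB motif, AAGGTCA or on the other strand TGACCTT, was in 39 windows (10.2%, 7.58 to 13.7) and in 7.06% of all windows. Its share was 9.82% in Early regions with SOX17 and 9.72% in the Transient class, both inside that interval. The OCT4:SOX2 motif contains a SOX site, so that a match to its letters can also hold ACAAT. The base composition was close between classes, with a mean GC content of 43.8% (SD 5.96) in the 381 windows and 45.7% (SD 6.29) over all windows.

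GATA6 and OCT4:SOX2 motifs often shared a window. Both were present in 203 of the 381 windows (53.3%, 48.3 to 58.2), GATA6 without OCT4:SOX2 in 116 (30.4%), OCT4:SOX2 without GATA6 in 46 (12.1%) and neither in 16 (4.2%). Both were present in 37.8% of Early regions with SOX17 (36.0 to 39.6), 45.1% of the Transient class (43.5 to 46.6) and 32.5% of Early regions without PTFs (30.6 to 34.5). In the Transient class 32.0% of windows had the OCT4:SOX2 motif without GATA6, and in Early regions without PTFs 60.9% had GATA6 without OCT4:SOX2. These shares were not tested beyond the single motifs.

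**Figure D3:**
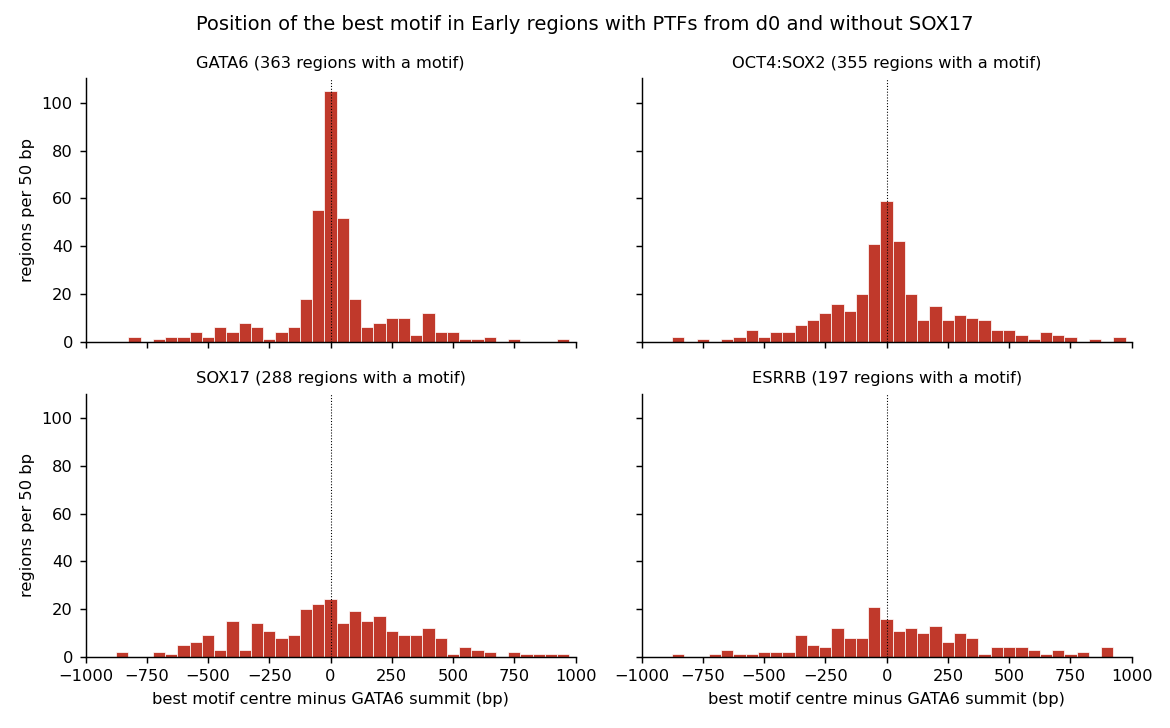
Distance (bp) of the centre of the best motif in the region from the GATA6 summit, in bins of 50 bp, for the 363, 355, 288 and 197 of the 381 regions with a GATA6, OCT4:SOX2, SOX17 or ESRRB motif. GATA6 and OCT4:SOX2 motifs pile up at the summit, with 46.0% and 32.4% within 50 bp, while SOX17 and ESRRB motifs spread over the region (15.3% and 17.8%).

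The position of the best motif of the whole region was measured from the summit. The best GATA6 motif was centred within 50 bp of the summit in 167 of 363 regions (46.0%, 40.9 to 51.1), and the best OCT4:SOX2 motif in 115 of 355 (32.4%, 27.7 to 37.4). Over all regions these were 19016 of 38052 (49.5 to 50.5%) and 26.7%, and the GATA6 share was 63.7% in Early regions without PTFs, 37.8% in those with SOX17 and 33.8% in the Transient class. The OCT4:SOX2 share was 19.0% in Early regions with SOX17 (17.6 to 20.6), 44.7% in the Transient class (43.1 to 46.3) and 21.3% in Early regions without PTFs (19.3 to 23.4). The best SOX17 motif was within 50 bp in 44 of 288 regions (15.3%, 11.6 to 19.9), compared with 29.0% over all regions. Between the best GATA6 and OCT4:SOX2 motifs of a region the median distance was 208 bp (quartiles 84 and 383 bp, n = 338), and 61 pairs (18.0%, 14.3 to 22.5) lay within 50 bp. That share was near the 19.3% of all regions, the 17.8% of the Transient class and the 19.0% of Early regions without PTFs, and above the 10.9% of Early regions with SOX17 (9.76 to 12.2). Of those close pairs 52.5% were on the same strand, and in 9 regions the 2 motifs overlapped. The 3 largest overlaps had Crlf2 (584 bp away), Eipr1 (232861 bp) and Tfec (207659 bp) as the nearest coding genes. The gaps between their motifs were -13, -10 and -9 bp, where a negative gap counts shared bases. Wider regions give room for longer distances, and the width of the classes differed as stated.

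After Oct4 knockdown, GATA6 binding was called decreased by the authors in 90 of the 381 regions (23.6%, 19.6 to 28.1) and increased in 3 (0.787%, 0.268 to 2.29). Over all 42403 regions 6.25% were called decreased and 8.57% increased. The decreased share was larger than in Early regions with SOX17 (18.5%, log2 odds ratio 0.45, 0.08 to 0.81, adjusted exact p = 0.0317), with that direction on 13 of 20 chromosomes. It was larger than in the Transient class (6.69%, 2.11, 1.72 to 2.49, adjusted exact p = 9.12e-22) and than in Early regions without PTFs (4.52%, 2.71, 2.26 to 3.15, adjusted exact p = 1.57e-28), on 20 of 20 chromosomes each. Early and Transient regions were separated by GATA6 signal over the time course, and the knockdown call rests on GATA6 signal at 48 h. The comparison with the Transient class is thus not independent of the selection, and the part this plays was not tested. Within width bins the log2 odds ratio fell to 1.41 against the Transient class (adjusted exact p = 1.81e-10) and to 2.16 against Early regions without PTFs (adjusted exact p = 6.86e-13), and within width bins and accessibility classes together it was 1.1 against the Transient class (adjusted exact p = 1.29e-06). The difference from Early regions with SOX17 was close to the threshold: it no longer passed without chromosomes X and Y (0.37, adjusted exact p = 0.0976) or within accessibility classes (0.39, adjusted exact p = 0.054, although 0.0454 by a chi-square test), and it was 0.6 within width bins (adjusted exact p = 0.00412).

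The increased class went the other way between the Early classes with PTFs. It held 5.38% of Early regions with SOX17, more than in the 381 regions (-2.84, -4.5 to -1.18, adjusted exact p = 1.48e-05). Against the Transient class (0.101%) the 3 increased regions gave a log2 odds ratio of 2.97 (0.81 to 5.14, adjusted exact p = 0.0317), which did not pass among summits over 1 kb from a transcript start (2.41, adjusted exact p = 0.121).

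**Figure D4:**
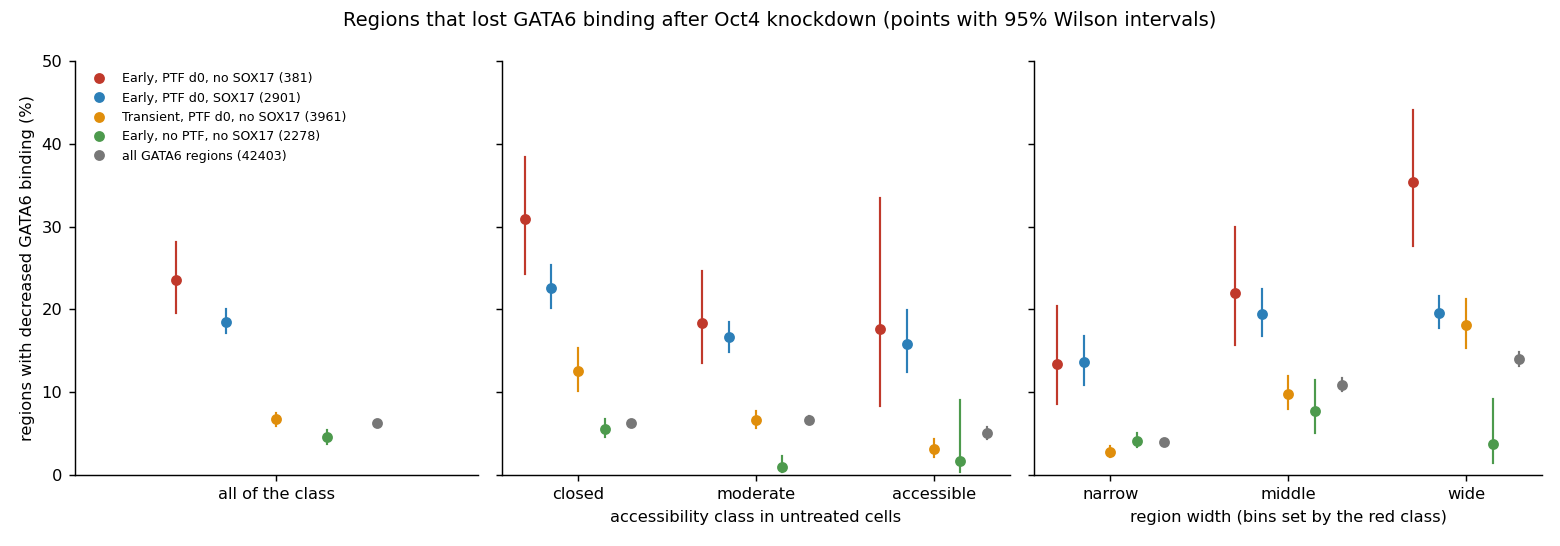
Share of regions (%) with decreased GATA6 binding after Oct4 knockdown, for each whole class (left), by accessibility at d0 (middle) and by width, in 3 bins that hold 127 of the 381 regions each (right); points are shares and bars 95% Wilson intervals. The 381 regions have 23.6% decreased in all, 30.9% among closed and 35.4% among wide regions.

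Within the 381 regions the decreased share was highest in closed chromatin. It was 50 of 162 closed regions (30.9%, 24.3 to 38.4), 34 of 185 moderately accessible ones (18.4%, 13.5 to 24.6) and 6 of 34 accessible ones (17.6%, 8.35 to 33.5). These intervals overlapped, and the differences were not tested. Over all regions the shares were 6.21%, 6.63% and 5.01% in this order. Closed regions of the neighbouring classes were decreased in 22.6% (SOX17-bound, 20.1 to 25.3), 12.5% (Transient, 10.1 to 15.3) and 5.54% (without PTFs, 4.56 to 6.7). The share was highest in closed chromatin in these 3 classes too. Their moderately accessible regions had 16.6%, 6.63% and 0.891%, and their accessible ones 15.8%, 3.06% and 1.69%. By histone state it was 30 of 81 naive regions (37.0%, 27.3 to 47.9), 30 of 119 primed enhancers (25.2%, 18.3 to 33.7), 10 of 68 active enhancers (14.7%, 8.19 to 25.0) and 3 of 27 promoters (11.1%, 3.85 to 28.1). Over all regions it was 7.64%, 7.26%, 7.23% and 2.84% in these states. In the remaining states it was 6 of 28 regions in facultative heterochromatin (21.4%, 10.2 to 39.5), 7 of 28 in constitutive heterochromatin (25.0%, 12.7 to 43.4) and 4 of 30 poised enhancers (13.3%, 5.31 to 29.7). Those states had 5.86%, 5.58% and 5.3% over all regions. The intervals of naive regions and active enhancers did not overlap. Within the 3 accessibility classes the log2 odds ratio of the decreased call was 1.72 against the Transient class (adjusted exact p = 6.12e-15) and 3.35 against Early regions without PTFs (adjusted exact p = 1.34e-34).

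Wider regions were decreased more often, in the 381 regions as over all GATA6 regions. The share was 13.4% in the 127 narrowest of the 381 regions (17 regions, 8.53 to 20.4), 22.0% in the 127 of middle width (28 regions) and 35.4% in the 127 widest (45 regions, 27.7 to 44.1). In the same width ranges it was 4.0%, 10.9% and 14.0% over all regions and 2.77%, 9.79% and 18.1% in the Transient class. Early regions with SOX17 had 13.6%, 19.4% and 19.6%, close to the 381 regions in the narrow and middle ranges. Early regions without PTFs had 4.11%, 7.72% and 3.7%, with no rise in the widest range. Decreased regions had a median width of 1024 bp (range 439 to 2893) and unchanged ones 849 bp (223 to 2663). They also held more motifs per region, with means of 4.6 against 3.42 for GATA6 and 4.23 against 3.07 for OCT4:SOX2. The part of region width in the motif numbers was not tested. The best OCT4:SOX2 score averaged 10.5 in decreased (SD 3.01, n = 89) and 10.6 in unchanged regions (SD 3.14, n = 263), and the best GATA6 score 11.9 (SD 2.14, n = 88) and 10.9 (SD 2.35, n = 272).

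Motifs in the summit window were also set against the knockdown class. With both a GATA6 and an OCT4:SOX2 motif 58 of 203 regions were decreased (28.6%, 22.8 to 35.1), with GATA6 only 19 of 116 (16.4%, 10.7 to 24.2), with OCT4:SOX2 only 7 of 46 (15.2%, 7.57 to 28.2) and with neither 6 of 16 (37.5%, 18.5 to 61.4). The intervals of these 4 groups overlapped. Over all regions the shares were 7.77%, 5.29%, 6.64% and 5.59% in this order. Decreased regions lay a median of 54.7 kb from the nearest coding transcript start and unchanged ones 18.0 kb. In the 3 neighbouring classes, in the order above, these medians were 23.8 and 15.4 kb, 28.0 and 22.3 kb, and 39.3 and 14.7 kb.

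Of the 90 decreased regions 5 had a transcript start no more than 1 kb from the summit. The 5 closest to a coding transcript start were 435 bp from Slc25a40 (a mitochondrial carrier), 808 bp from Eef2k (the kinase of elongation factor eEF2), 893 bp from Dnajc22, 899 bp from Ppip5k2 (an inositol pyrophosphate kinase) and 1248 bp from Acsl5 (a long-chain acyl-CoA ligase). They covered all 3 accessibility classes: the Slc25a40 and Acsl5 regions were accessible, the Eef2k and Ppip5k2 regions moderate and the Dnajc22 region closed. The Acsl5 window printed above had an OCT4:SOX2 score of 15.15 and a GATA6 score of 10.13, while the Ppip5k2 window had neither motif. The 3 increased regions were nearest to Slc1a3 (a glutamate transporter, 23079 bp), Pim1 (a serine/threonine kinase, 52145 bp) and Efnb2 (an ephrin ligand, 151557 bp), and all 3 were moderately accessible.

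Listed genes of the cell types of the early embryo were searched for members nearby. Of 90 listed genes, 5 had 1 of the 381 regions within 100 kb of a transcript start, through 6 regions in all. These were 2 of 22 pluripotency genes and 3 of 23 signalling genes. None of 29 PrE genes, 9 genes of the formative and primed epiblast or 7 trophoblast genes had one, though each of the 90 genes had at least 1 GATA6 region of some class in that distance. For comparison, the 2901 Early regions with SOX17 reached 17 of 22 pluripotency and 19 of 29 PrE genes, the 3961 Transient regions 20 of 22 and 11 of 29, and the 2278 Early regions without PTFs 9 of 22 and 13 of 29. These classes hold more regions, so the counts are descriptions and not comparisons of rates.

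The region nearest to a pluripotency gene lay 4047 bp upstream of Sox2, which encodes the partner of OCT4. It spanned chr3:34645871-34646868 (GRCm38), in an intron of the noncoding gene Sox2ot. It was moderately accessible, in the primed enhancer state, and its GATA6 binding was called decreased after Oct4 knockdown. Its window had a GATA6 score of 8.72 and an OCT4:SOX2 score of 12.24. The other pluripotency gene was Tet2, which encodes an oxidase of 5-methylcytosine, with a closed, primed region 28288 bp away in a Tet2 intron and scores of 8.87 and 6.56. Its GATA6 binding was unchanged after knockdown.

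Among signalling genes, the FGF receptor gene Fgfr2 had an active enhancer region (chr7:133040805-133042165) in an annotated intron, 82.1 kb downstream of a transcript start. Its window had scores of 11.53 for GATA6 and 12.88 for OCT4:SOX2. The coding transcript start nearest to this region was not of Fgfr2 but of Ctbp2, 11151 bp away. Etv5, an ETS factor gene induced by FGF/ERK signalling, had 2 regions. One, only 247 bp wide, lay 907 bp from a transcript start and had an OCT4:SOX2 motif (13.75) and no GATA6 motif in the whole region, and the other lay 9489 bp away as an accessible active enhancer with a GATA6 motif (8.91). Id1, a BMP target that blocks basic helix-loop-helix factors, had a primed region 36.2 kb downstream. It lay between genes, and Cox4i2 was the nearest coding gene (17350 bp). It had no GATA6 motif and had strong SOX17 (12.81) and ESRRB (17.91) matches. All 4 regions near signalling genes were unchanged after Oct4 knockdown.

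The regions with the best motif matches did not share 1 chromatin class. For GATA6 they were an accessible region in Hmgxb4 (15.13), an accessible promoter region at Hnrnph3, an RNA-binding protein gene (15.01, 80 bp from the start), and a closed, naive region 123225 bp from Mex3b (15.01). Of these, the Mex3b region was called decreased after Oct4 knockdown. For OCT4:SOX2 they were a moderately accessible region 201833 bp from Hs3st5, a moderately accessible primed enhancer in Taf15 and a closed, naive region in Fam129a, all unchanged. The best ESRRB matches were in 3 closed regions 49087 bp from Traf6, 6211 bp from 2200002J24Rik and 12969 bp from Myo10, of which the second was decreased. The best SOX17 matches were in regions 4282 bp from Nnt, 78685 bp from Chd6 and 32546 bp from Dgkh. These were closed, accessible and moderate in this order and had no SOX17 peak.

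The 381 regions were mostly distal and lay among other GATA6 regions. Summits were within 1 kb of a transcript start in 40 regions (10.5%, 7.81 to 14.0), and this share did not differ past the threshold from any class (11.0%, 9.11% and 12.8%, intervals of the log2 odds ratio -0.57 to 0.43, -0.27 to 0.72 and -0.83 to 0.18). The median distance to a coding transcript start was 22.6 kb (quartiles 5.44 and 66.0 kb), compared with 22.6 kb in the Transient class, 16.4 kb in Early regions with SOX17 and 15.7 kb in those without PTFs. Another GATA6 region lay within 10 kb of 216 members (56.7%, 51.7 to 61.6), near the 53.6% of all regions. A SOX17-bound one lay within 10 kb of 112 (29.4%, 25.0 to 34.2). The latter share was 46.6% for Early regions with SOX17 (44.8 to 48.4), 22.6% for the Transient class (21.3 to 23.9) and 33.1% for all regions. Another of the 381 regions lay within 10 kb of 10 members (2.62%, 1.43 to 4.76). One of the 381 lay that close to 0.901% of all regions. In the 3 neighbouring classes, in the order above, the share was 1.0%, 1.21% and 1.67%.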

How the data were processed

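Per the study's methods, the authors aligned ChIP-seq reads with bowtie2 to mm10, ran MACS2 on pooled replicates to find GATA6 peaks, and retained those found in every replicate as well. They set the GATA6 classes by k-means clustering of input-normalised signal, the PTF and SOX17 classes by called peaks, and the Oct4 knockdown class by a count model between Oct4 and control siRNA. Positions, classes and motif numbers were used as deposited. The deposited motif score is a log-odds match score, not normalised, of the best match in a region. Of 105 columns 34 were used. Another 59 columns of values per time point or assay match no library of the series and were not used, nor were 12 columns that group motif values. The columns used give no counts, so depth is unknown here.

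Scoring matrices were recovered from the deposited best motifs and their GRCm38 sequence (RefSeq), and rescanned regions matched the table in motif presence in 99.58% (GATA6) or 100.0% of cases. Windows reaching 100 bp to each side of summits and control windows 3 kb away were scanned with them. Summits were annotated with GENCODE M21, and those within 1 kb of a transcript start were called promoter. Classes were compared by two-sided Fisher's exact tests with Benjamini-Hochberg adjustment over 48 tests, and stratified alternatives by an exact conditional test with a Mantel-Haenszel odds ratio, adjusted over the tests run with that alternative. Both were tested on simulated data. No library entered a test. Members and gene lists were chosen with earlier results of these data known. Named regions were those within 100 kb of a listed gene, the 3 with the highest score of each motif, the 5 nearest to a coding start among decreased and among increased regions, and the 3 with the closest GATA6 and OCT4:SOX2 motifs. Alternatives were strata of region width or accessibility, other windows and score limits, and subsets without promoters or sex chromosomes. Scripts ran under Python 3.11.15 with scipy 1.17.1 and pandas 2.3.3.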

Additional observations from a re-analysis of the deposited data

How the results depend on the processing

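Among the recomputed values, 180 kept their side of the threshold or stayed inside their interval, 7 no longer passed, 7 passed newly, 4 moved and 3 reversed. Direction was required for the 180 only where the main result had passed. For the closed share, active enhancers, the decreased call and the GATA6, SOX17 and OCT4:SOX2 motifs, 71 of 78 were among these 180. The decreased call against Early regions with SOX17 had a log2 odds ratio of 0.37 without chromosomes X and Y and 0.39 within accessibility classes, and no longer passed in either. Counting a motif anywhere in the region gave 0.02 (GATA6 against Early regions with SOX17), 0.07 and -0.26 (OCT4:SOX2 against Early regions with SOX17 and the Transient class), which did not pass. It gave 1.16 for SOX17 against Early regions without PTFs, which then passed, and reversed SOX17 (0.14) and ESRRB (0.41) against the Transient class. The cause was not tested, and regions of the classes differ in width. Within width bins, constitutive heterochromatin against Early regions without PTFs reversed to 1.12 and then passed. The 4 values that moved were mean in place of best scores: GATA6 against the Transient class (0.4), OCT4:SOX2 (0.9) and SOX17 (-0.2) against Early regions without PTFs, and SOX17 against the SOX17-bound class (-0.33). The stratified comparisons were first run with a Cochran-Mantel-Haenszel chi-square test, and the exact conditional test replaced it after those values had been seen. Of 45 stratified comparisons the call differed in 1, the decreased call against Early regions with SOX17 within accessibility classes, which passed with the chi-square test (adjusted p = 0.0454) and not with the exact test (adjusted p = 0.054). An alternative chosen after seeing the data, width bins and accessibility classes together, gave 0.58, 1.1 and 2.73 for the decreased call against the SOX17-bound, Transient and PTF-free classes, and each passed. No paired analysis was possible because no column used carries a replicate. Depth limits could not be given because the columns hold no counts.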

Other observations

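Motif density ordered the 4 classes as motif presence in the summit window did for GATA6, OCT4:SOX2 and ESRRB, and for SOX17 the order of the 381 regions and of Early regions without PTFs was exchanged. Per kb of region the 381 regions held 3.91 GATA6, 3.52 OCT4:SOX2, 1.68 SOX17 and 0.823 ESRRB motifs. Early regions with PTFs and SOX17 held 3.45, 2.73, 2.24 and 0.839, the Transient class 3.11, 3.98, 2.07 and 0.929, and Early regions without PTFs 5.9, 2.27, 1.77 and 0.76. At least 2 OCT4:SOX2 motifs were present in 80.8% of the 381 regions, compared with 43.3% of all regions. These values were not tested.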
